A study of Mus musculus with 13 samples.

Results

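The Notch genes followed here are 10 members chosen by symbol: the receptors Notch1, Notch2, Notch3 and Notch4, the ligands Jag1 and Jag2, and the target genes Hes1, Hey1, Hey2 and Heyl. They are 10 of the 57010 genes counted in each library, and all 10 were among the 15034 genes with enough counts to be tested. The RNA came from wild-type mouse embryonic fibroblasts (MEFs), which are primary cells grown from embryos. For mice 4, 5 and 6 the 4 conditions were control MEFs, senescent MEFs without Fucoidan, and senescent MEFs given Fucoidan-FV at 100 or 300 μg/mL for 12 h. Senescence was induced in the last 3 groups with 2 μM etoposide for 24 h, followed by 5 days of culture. Etoposide traps topoisomerase II on broken DNA, and Fucoidan-FV is a sulfated polysaccharide from the brown alga Fucus vesiculosus. Each group therefore has 3 samples, and as the labels give a mouse number and no culture, p-values measure the spread between these samples.

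Notch receptors are membrane proteins that are cut when a Jagged or Delta ligand on a neighboring cell binds and pulls on them. The freed intracellular part enters the nucleus, joins the DNA-binding protein RBPJ and a Mastermind coactivator, and switches on genes of the Hes and Hey families, which encode repressors. In fibroblasts and mural cells, NOTCH3 and JAG1 are known for cell-cell signaling within vessel walls and stroma, and NOTCH1 activity has been tied to the secretory state of senescent cells.

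The sequences before the start sites are shown for the pair of members that rose from control to every senescent group, Notch3 and Jag2, and for Hey2, the member whose window held the letters that RBPJ binds. Of the 10 members, 7 had a window in the RefSeq promoter table (build GRCm38.p6), and Hes1, Hey1 and Heyl had none. Each window holds 300 bases, 250 before the start and 50 after it, and the 250 before the start are printed from 5′ to 3′ on the strand of the gene. In the first pair of sequences the capitals mark the GC box GGGCGG on either strand, and in the Hey2 sequence they mark the RBPJ core TGGGAA on either strand.
Notch3, chr17:32166891-32167140, minus strand: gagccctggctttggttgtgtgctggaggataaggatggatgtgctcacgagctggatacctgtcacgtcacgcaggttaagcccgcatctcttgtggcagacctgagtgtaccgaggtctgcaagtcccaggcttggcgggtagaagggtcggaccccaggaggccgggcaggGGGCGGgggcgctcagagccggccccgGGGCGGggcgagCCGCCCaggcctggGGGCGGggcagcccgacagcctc
Jag2, chr12:112929496-112929745, minus strand: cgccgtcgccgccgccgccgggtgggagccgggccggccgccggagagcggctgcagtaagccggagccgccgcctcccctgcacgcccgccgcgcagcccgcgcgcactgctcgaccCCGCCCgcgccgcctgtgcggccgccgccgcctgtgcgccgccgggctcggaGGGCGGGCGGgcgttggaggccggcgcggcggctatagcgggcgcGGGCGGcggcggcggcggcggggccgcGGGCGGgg
Hey2, chr10:30842784-30843033, minus strand: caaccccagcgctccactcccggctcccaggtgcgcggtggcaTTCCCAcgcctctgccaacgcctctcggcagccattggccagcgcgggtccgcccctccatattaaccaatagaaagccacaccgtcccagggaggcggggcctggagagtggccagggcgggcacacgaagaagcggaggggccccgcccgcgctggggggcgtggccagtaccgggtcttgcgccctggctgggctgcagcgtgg
The RBPJ core TGGGAA was found in 1 of the 7 member windows and in 25.6% of all 32851 windows. In the Hey2 window it began at position −207 on the minus strand of the gene and again at position −3, where it ran past the start and is not marked. No window of a member held the E-box CACGTG, found in 7.15% of all windows, and the AP-1 letters TGANTCA (7.81% of all windows) were found in the Notch4 window alone. GC boxes were found in 5 of the 7 windows, against 35.7% of all windows, and no RBPJ match overlapped another motif searched. The stretch before Jag2 was 87.2% G or C with 54 CpG dinucleotides, and that before Notch3 was 68.8% with 17. These are matches of letters in 1 window, and whether any of them is bound was not tested.

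Total counts were 22782536 to 31278750 per library, and control mouse 5 was sequenced as libraries 5(1) and 5(2), which were summed. The fibroblast markers were all detected in every group, with a summed level of 10595 to 16509 CPM, which are counts scaled to a common library size over the samples. They did not move together. Over control, untreated senescent, 100 and 300 μg/mL, median TPM (abundance per length) was 6562.5, 9379, 7060 and 7404 for Vim and 976, 630, 1124 and 822 for Col1a1. It was 0.72, 12.7, 48.15 and 55.0 for Dcn and 0.05, 0.38, 5.65 and 2.15 for Lum. Endothelial markers summed to 1.69 to 12.5 CPM, and Cldn5 was at 0 in every group. Libraries also differed in a way the groups do not explain. Among 1104 genes with 95% to 100% of their exon bases in a single annotated transcript, the library medians ran from 1.36 log2 units below the mean of all libraries in control mouse 6 to 1.08 above it in mouse 5 at 100 μg/mL, and library 5(1) was at −1.02 and 5(2) at 0.84. For the 6355 genes with a share under 50%, the medians ran from −0.15 to 0.15. This share was 90.4% for Notch3, 96.5% for Hey2 and 59.2% for Jag2, and 21.5% for Notch4, the lowest of the members. Each result of a member below is therefore also given with composition offsets, a correction per gene and library for this share, exon length and GC content, where it moves a call. For the other Notch pathway genes the numbers called under the offsets are given, and only some of the genes whose call moved are named.

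Notch3 rose with senescence. Its mean was higher again at both Fucoidan-FV doses, but neither step passed edgeR's test as counted and filtered here. Both passed with composition offsets (adjusted p = 0.0220 and 0.0450), and most fits that also left out a mouse lost these calls. At 300 μg/mL Notch3 in mouse 4 lay below its untreated sample. Its gene lies at chr17:32339794-32385893 in GRCm39, on the minus strand, and encodes the receptor best known from vascular smooth muscle and pericytes. Control MEFs had 2.29 CPM in mouse 4, 4.36 in mouse 5 and 0.470 in mouse 6. Untreated senescent MEFs had 27.0, 8.62 and 11.6 CPM in the same mice, so the lowest senescent sample lay above the highest control. The fitted rise was 6.43-fold, or 2.68 on the log2 scale (SE 0.66, 95% CI 1.25 to 4.12), and edgeR's quasi-likelihood test gave an adjusted p of 0.0189. A gene is called a DEG (differentially expressed gene) where this p is below 0.05 and the fitted level moved by more than 1 log2 unit, and Notch3 was a DEG here. The call was lost without control mouse 4 (adjusted p = 0.0847), control mouse 6 (0.0517) or senescent mouse 4 (0.0997), in a fit of only these groups (0.0803), and with libraries 5(1) and 5(2) as separate samples (0.0714). Library 5(1) held 11 Notch3 counts and library 5(2) 211, and the log2 fold change was 3.91 with 5(1) alone for control mouse 5 and 2.01 with 5(2) alone (adjusted p = 0.128). With composition offsets the log2 fold change was 2.57 and the adjusted p 0.00113, and Notch3 stayed a DEG in all 6 fits that also left out a mouse.

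With 100 μg/mL Fucoidan-FV, Notch3 was at 78.8, 90.8 and 48.5 CPM in mice 4, 5 and 6, all above every untreated senescent sample. Set against the untreated cells this was a log2 difference of 2.21 (SE 0.64, 95% CI 0.83 to 3.58), whose adjusted p of 0.0696 missed the threshold. With composition offsets it was 1.73 and the adjusted p 0.0220, and with DESeq2 the adjusted p was 0.00676, so both called it. Leaving out a mouse under the offsets kept the call only without senescent mouse 4 (adjusted p = 0.0137), and it missed the threshold without any of the other 5 samples, at 0.0589 to 0.0775. With 300 μg/mL the levels were 20.2, 67.9 and 63.5 CPM, which overlapped the untreated samples. The log2 fold change was 1.68 (SE 0.63, 95% CI 0.33 to 3.04) with an adjusted p of 0.207. Composition offsets gave 1.51 and 0.0450, and with the mouse as a block beside them the call was lost (0.0606). With a mouse left out under the offsets the call held without senescent mouse 4 (0.0283) or mouse 4 at 300 μg/mL (0.0420), and the other 4 fits gave 0.119 to 0.174. The doses differed by −0.52 (300 against 100 μg/mL, 95% CI −1.84 to 0.79, adjusted p = 0.970), which missed the threshold and leaves differences of that width possible. Against control MEFs, Notch3 was a DEG at both doses, 29.7-fold higher at 100 μg/mL (log2 fold change 4.89, adjusted p = 0.000341) and 20.6-fold at 300 μg/mL (4.37, adjusted p = 0.000692), higher in 3 of 3 mice each time. At 100 μg/mL the log2 value was 6.11 with library 5(1) alone and 4.21 with 5(2) alone, and Notch3 was a DEG with either. These comparisons share the control and untreated senescent samples with those above.

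The composition offsets narrowed the spread of Notch3 within groups. Its mean at 100 μg/mL was 72.7 ± 21.8 CPM (SD, n = 3) as counted and 52.8 ± 2.54 with the offsets, and the senescent mean was 15.7 ± 9.85 as counted and 15.9 ± 6.71 with them. The control mean was 2.37 ± 1.95 CPM as counted and 2.48 ± 1.72 with the offsets. With 300 μg/mL the mean was 50.5 ± 26.4 and then 45.4 ± 14.6, with mouse 4 lowest on either scale. Of the bases in Notch3 exons, 5.98% overlap exons of Gm17276 on the other strand, and how strand was treated in counting is not given in the sources used here. The summed level of 8 mural markers, the cell type in which Notch3 is best known, was 7487 to 9586 CPM in control, 6892 to 11077 in untreated senescent, 4044 to 5701 at 100 μg/mL and 4608 to 5649 at 300 μg/mL, with none of the 8 at 0. The sum mainly follows Acta2, Tagln and Cnn1, with medians of 5885, 3019 and 912 TPM (abundance per length), against 61.2 for Myh11 and 3.7 for Rgs5. Of these markers Myh11 rose from control to untreated senescent MEFs, Rgs5 rose at 100 μg/mL, and Cnn1 and Tagln fell at both doses against untreated cells. Their part in the Notch3 values was not tested, and in bulk RNA fewer cells of a type and less RNA per cell cannot be told apart.

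**Figure D1:**
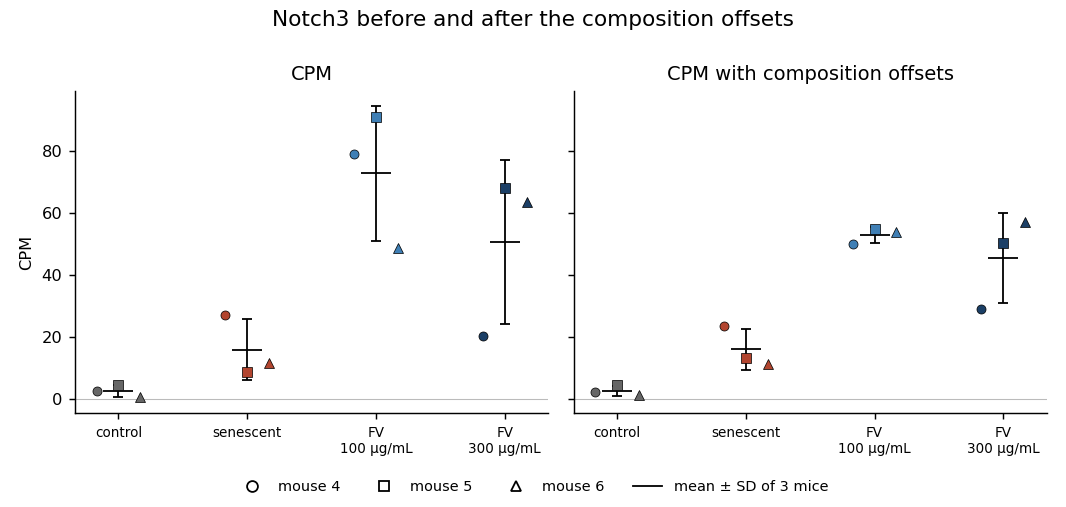
Notch3 in each sample, in CPM as counted (left) and after composition offsets (right), by group on the horizontal axis, where FV is Fucoidan-FV, with a symbol for each mouse and bars for the mean and SD of 3 mice. The 3 samples at 100 μg/mL run from 48.5 to 90.8 CPM on the left and from 49.99 to 54.9 on the right.

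The other receptors were not DEGs in any comparison. Notch2, a receptor expressed widely in mesenchyme (chr3:97920800-98057677), had 50.1, 36.8 and 27.2 CPM in control mice 4, 5 and 6 and 49.9, 22.3 and 17.9 in untreated senescent MEFs. Cells given 100 μg/mL had 78.2, 77.7 and 49.2 CPM, higher than the untreated sample of the same mouse in 3 of 3, although the lowest treated sample lay just under the highest untreated one. The difference, 1.18 in log2 units (SE 0.39), had an adjusted p of 0.111, and was 0.74 (adjusted p = 0.0840) with composition offsets. DESeq2 called it (1.28, adjusted p = 0.0321), as did the fit without senescent mouse 4 (1.96, adjusted p = 0.0333). With the higher dose Notch2 was at 32.5, 68.9 and 50.4 CPM, which overlapped the untreated samples (log2 fold change 0.75, SE 0.39, adjusted p = 0.395). Notch1, the receptor studied most in development (chr2:26347915-26406675), lay between 3.52 and 18.7 CPM over the 12 samples, and the groups overlapped in every comparison. Its sign against untreated senescent MEFs at 100 μg/mL depended on the scaling, at 0.52 (SE 0.51) as counted and −0.16 with composition offsets, and 10.6% of its exon bases overlap genes on the other strand.

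Notch4, a receptor known mainly from endothelium (chr17:34783220-34807477), was low throughout. Control MEFs had 0.467, 2.41 and 6.95 CPM in mice 4, 5 and 6, a wider spread than in any other group, and untreated senescent MEFs had 4.79, 3.32 and 4.08. In cells given 100 μg/mL it was at 1.66, 1.51 and 0.346 CPM, and at 300 μg/mL 1.98, 1.53 and 0.664, so every treated sample lay below every untreated senescent sample. The log2 fold changes were −1.79 (SE 0.83, adjusted p = 0.254) and −1.54 (SE 0.83, adjusted p = 0.413), neither past the threshold, and −1.81 and −1.78 with composition offsets. Among the endothelial markers Cldn5 was at 0 in every group, and the summed level was 4.61 to 7.03 CPM in untreated senescent MEFs, 6.73 to 12.5 at 100 μg/mL and 5.47 to 9.21 at 300 μg/mL, against 1.69 to 4.504 in control. The endothelial markers did not move together. Over untreated senescent, 100 and 300 μg/mL, median TPM fell for Esam (4.38, 1.4 and 1.25). It was higher at both doses for Tek (0.11, 2.13 and 1.73) and Emcn (0.15, 1.19 and 0.48). For every other endothelial marker it was at or under 0.41 in these groups. The part of these markers in the Notch4 values was not tested.

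Jag2 went from no count to a low level with senescence. The gene encodes a Jagged ligand and lies at chr12:112871421-112893437. It had 0 counts in all 4 control libraries, against 60, 2 and 8 counts in untreated senescent mice 4, 5 and 6. Mouse 4 thus held 60 of the 70 senescent counts. Treated cells had more even counts, 44, 64 and 17 at 100 μg/mL and 28, 38 and 40 at 300 μg/mL. Set against a floor of 3 counts over the control group, Jag2 was at least 26.6-fold higher in untreated senescent MEFs (adjusted p = 0.0153), at least 45.7-fold higher at 100 μg/mL (adjusted p = 0.00382) and at least 43.4-fold higher at 300 μg/mL (adjusted p = 0.00445), a DEG each time. The floor covers counting error only. In a fit of only control and untreated senescent MEFs, Jag2 had too few counts to be tested. It was open to the test between these groups only because its counts in treated cells passed the filter. Without control mouse 5 the call in untreated senescent MEFs was lost (adjusted p = 0.0613), while without senescent mouse 4 it was kept (adjusted p = 0.0469) but the bound fell to at least 6.06-fold on 10 counts. Between treated and untreated senescent MEFs the samples overlapped, with log2 fold changes of 0.93 (95% CI −1.34 to 3.20, adjusted p = 0.681) at 100 μg/mL and 0.83 (95% CI −1.44 to 3.10, adjusted p = 0.782) at 300 μg/mL. Both intervals span falls and rises of more than 2-fold, which these samples could not resolve.

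Jag1, the Jagged ligand with more RNA in these cells (chr2:136923373-136958693), had 42.9, 54.3 and 43.0 CPM in control mice 4, 5 and 6. Untreated senescent MEFs had 38.8, 39.4 and 28.8 CPM, all below the lowest control, though not with composition offsets (34.5 CPM in control mouse 4 against 47.3 in senescent mouse 5), and the log2 difference of −0.39 (SE 0.30) missed the threshold with an adjusted p of 0.470. Cells given 100 μg/mL had values of 61.4, 93.6 and 48.3 CPM, all above the untreated samples, and the log2 difference of 0.93 (SE 0.30, 95% CI 0.28 to 1.58) had an adjusted p of 0.104. DESeq2 called this difference (1.02, adjusted p = 0.0326), and composition offsets did not (0.62, adjusted p = 0.146). Under 300 μg/mL mouse 4 was at 36.6 CPM, under its untreated sample, and mice 5 and 6 were at 77.6 and 69.5, a log2 difference of 0.78 with SE 0.30 (adjusted p = 0.222).

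**Figure D2:**
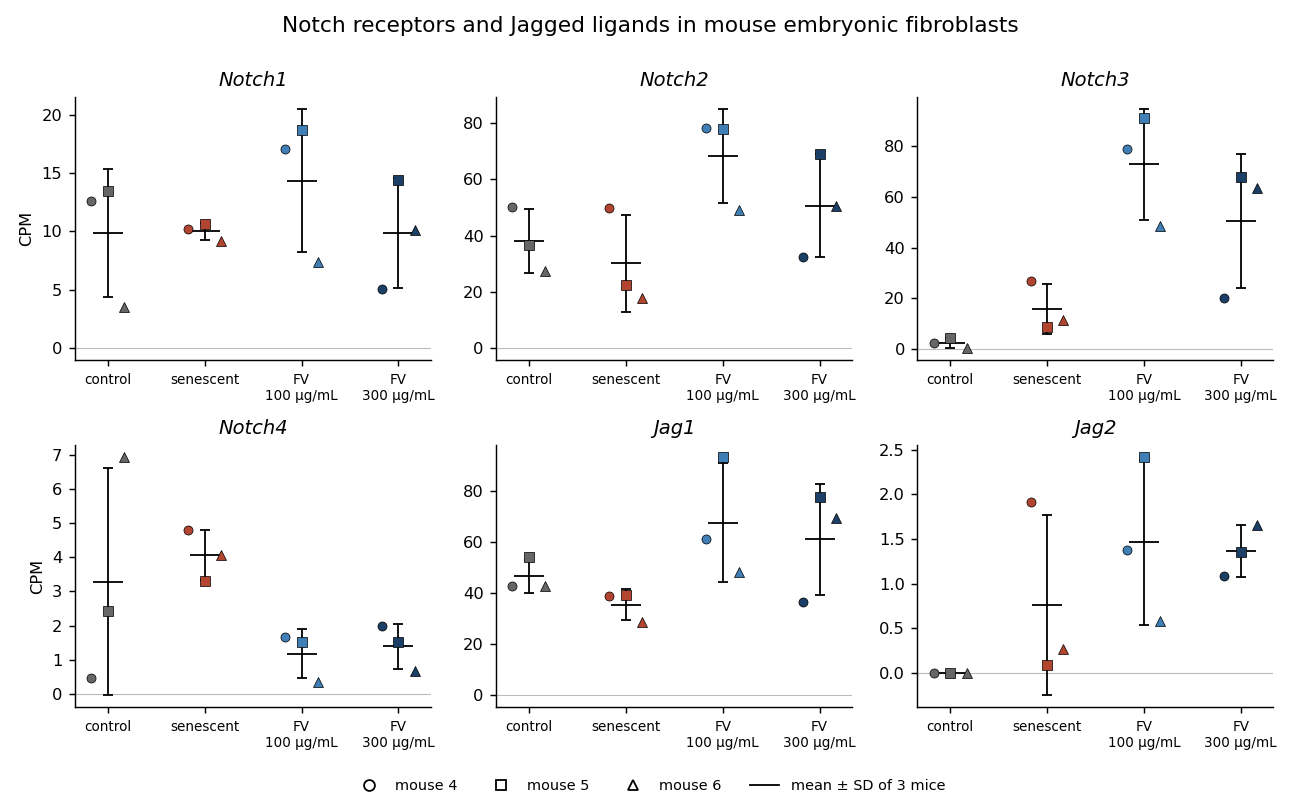
The receptors and ligands in CPM (vertical axes, 1 scale per gene) for control, untreated senescent and Fucoidan-FV (FV) treated senescent MEFs, with a symbol for each mouse and bars for the mean and SD of 3 mice. Notch3 ran from 0.470 to 4.36 CPM in control and from 48.5 to 90.8 at 100 μg/mL, and Jag2 had no count in control.

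The target genes did not rise with Notch3 and Jag2 in a way that passed a test. Hes1, the repressor gene most often read as a Notch target (chr16:29882134-29886643), had 29.7, 25.5 and 20.4 CPM in control mice 4, 5 and 6. Untreated senescent MEFs had 21.8, 10.95 and 60.3 CPM, so mouse 6 was the highest of the 12 samples and mouse 5 close to the lowest. With composition offsets the senescent values drew together, to 21.03, 14.02 and 30.3 CPM. Treated cells had 18.6, 22.1 and 10.2 CPM at 100 μg/mL and 17.4, 15.2 and 18.4 at 300 μg/mL. The senescent and treated groups overlapped, and the log2 fold changes of −0.87 (SE 0.48) at either dose had adjusted p-values of 0.345 and 0.433. Leaving out senescent mouse 6 turned them to 0.22 at 100 μg/mL and 0.09 at 300 μg/mL. All 3 samples at 300 μg/mL lay below the lowest control sample (log2 fold change −0.57, adjusted p = 0.433), and with composition offsets mouse 4 at 23.9 CPM overlapped control.

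Hey1, Hey2 and Heyl encode related repressors and were counted at low levels. Hey1 had 3.53, 2.18 and 2.91 CPM in control mice 4, 5 and 6 and 1.25, 1.77 and 1.63 in untreated senescent MEFs, below control in 3 of 3 mice as counted but not in mouse 5 with composition offsets (1.88 in control and 2.37 in senescent), and its fitted difference of −0.89 (log2, SE 0.78) had an adjusted p of 0.540. Cells given 100 μg/mL had 1.16, 2.04 and 0.45 CPM, again below every control sample (log2 fold change −1.24, adjusted p = 0.267), and at 300 μg/mL it ran from 0.194 to 2.31. Hey2 ran from 0.470 to 2.25 CPM in control, 0.474 to 1.53 in untreated senescent MEFs, 1.11 to 3.60 at 100 μg/mL and 0.814 to 2.77 at 300 μg/mL, and its log2 difference from untreated to 100 μg/mL, 1.27 (SE 0.75), had an adjusted p of 0.383. Heyl, a target known from smooth muscle, was at or under 1.80 CPM in every sample, and its groups overlapped in all 6 comparisons. At these counts the 95% CI of the Heyl difference at 100 μg/mL ran from −3.35 to 1.38, so neither direction could be resolved.

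**Figure D3:**
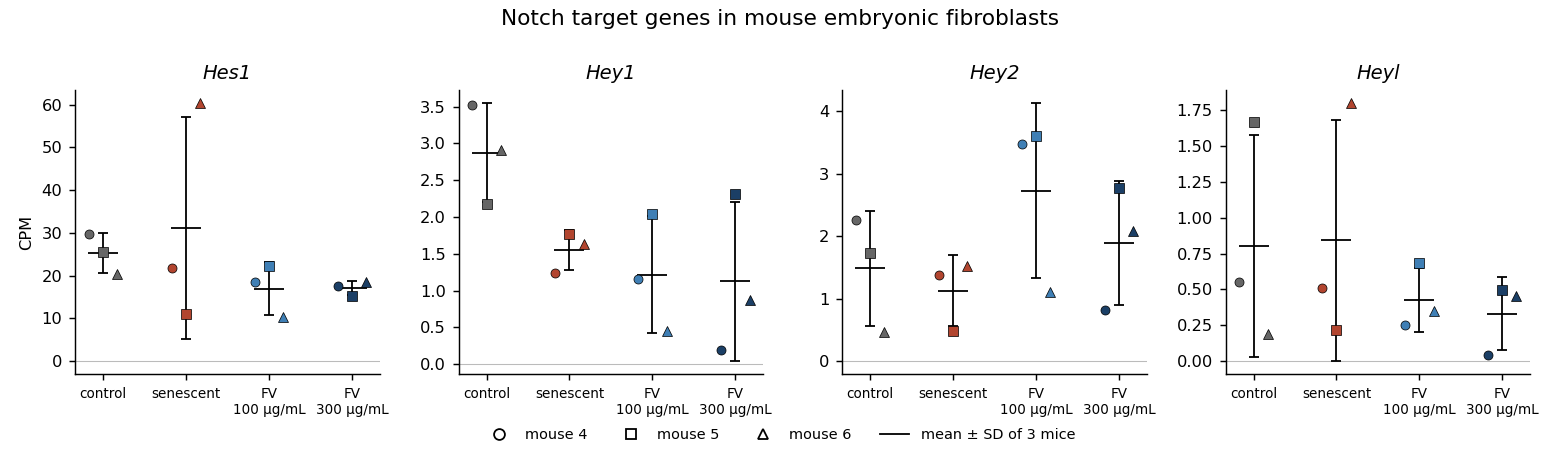
The target genes in CPM (vertical axes, 1 scale per gene) for control, untreated senescent and Fucoidan-FV (FV) treated senescent MEFs, with a symbol for each mouse and bars for the mean and SD of 3 mice. The untreated senescent Hes1 samples run from 10.95 to 60.3 CPM, and the control Hey1 samples from 2.18 to 3.53.

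Of the 10 members, Notch3 and Jag2 were the 2 DEGs in untreated senescent against control MEFs, where 8.42% of the 15034 genes were DEGs. The values did not overlap between these groups for 4 members, Notch3 and Jag2 above and Jag1 and Hey1 below, where 27.1% of all genes did not overlap. The median log2 fold change of the members was 0.03 and that of all genes 0.07. The 8 members that were not DEGs had log2 fold changes from −0.89 to 0.31, with adjusted p-values of 0.470 to 0.992.

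Against untreated senescent MEFs, edgeR called no member a DEG at 100 μg/mL, where 2.69% of all genes were, although 3 members (Notch2, Notch3 and Jag1) had an unadjusted p under 0.05 (19.8% of all genes) and DESeq2 called the same 3 (5.53% of all genes). Groups did not overlap for 3 members, Notch3 and Jag1 above and Notch4 below, where 26.2% of all genes did not. As counted, the median over the members was 0.72 against −0.02 for all genes. Composition offsets lowered Notch1 to −0.16, Notch2 to 0.74, Notch3 to 1.73, Jag1 to 0.62 and Hey2 to 0.61. They also lowered Notch4, Hey1 and Heyl, and raised Jag2 to 0.96 and Hes1 to −0.39. At 300 μg/mL 0 members were DEGs by edgeR and 0 by DESeq2, where 1.64% of all genes were by edgeR, with 2 members (Notch3 and Jag1) under an unadjusted p of 0.05, as were 15.3% of all genes. Only Notch4 did not overlap there, where 19.6% of genes did not, and the median as counted was 0.36 against 0.00027 for all genes. At this dose the offsets lowered Notch1 to −0.39, Notch2 to 0.59 and Hey2 to 0.57, and raised Hes1 to −0.15. The other members also moved down, except Heyl, at −1.34 on either scale. Between the doses no member was a DEG by edgeR or DESeq2 and 0 had an unadjusted p under 0.05, where 0.00665% of genes were DEGs. None of the members was free of overlap between the doses, against 7.54% of all genes, and the log2 differences of 300 against 100 μg/mL ran from −0.54 to 0.25. Against control MEFs, Notch3 and Jag2 were the DEGs at both doses, 2 of 10 members, where 19.7% of genes were DEGs for the lower dose and 18.0% for the higher. Groups did not overlap for 3 members at either dose, Notch3 and Jag2 above with Hey1 below at 100 μg/mL and with Hes1 below at 300 μg/mL, where 48.3% and 43.3% of all genes did not overlap. Against control the member shares at either dose are close to or under the background, and no reading is made from them about the Notch genes as a list.

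**Figure D4:**
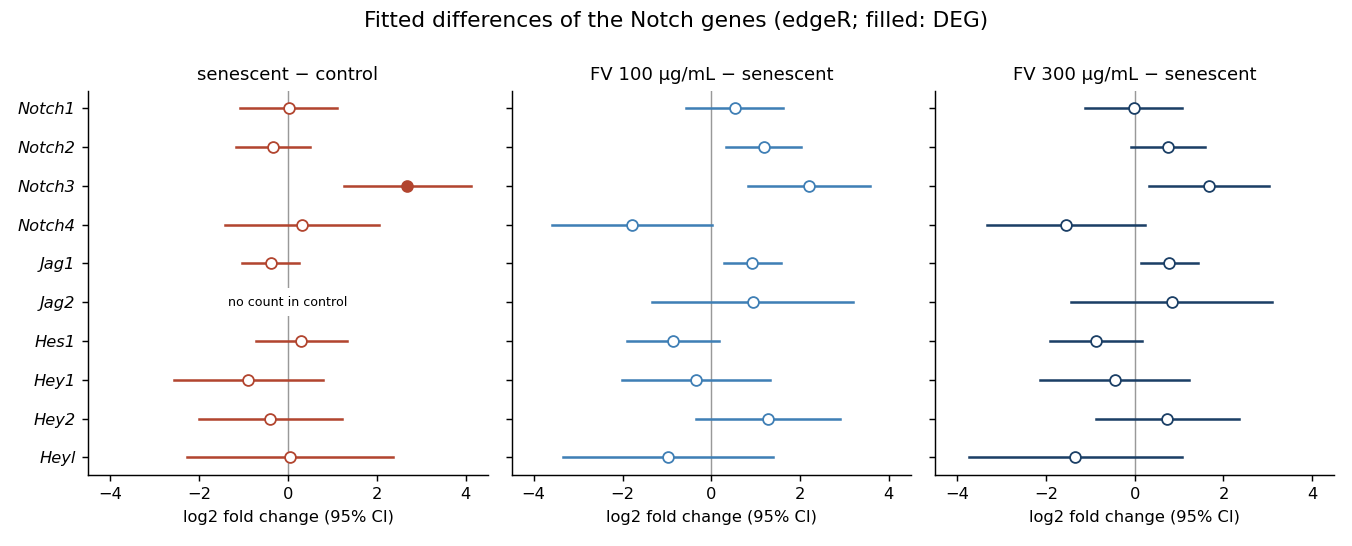
Fitted log2 fold changes of the 10 members with 95% confidence intervals (horizontal axes) in untreated senescent against control MEFs and in each Fucoidan-FV (FV) dose against untreated senescent MEFs, from edgeR, with filled points for DEGs and no point for Jag2 on the left because it had no count in control. Notch3 stands at 2.68, 2.21 and 1.68 from left to right.

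Levels were compared between genes per length, as TPM (transcript abundance scaled to length and depth) made by RSEM, with no test. Pooled over the groups, Hes1 had the highest median of the 12 samples, 57.6 TPM (28.6 to 123), followed by Jag1 at 24.6 (10.1 to 47.4), Notch3 at 19.7 (0.07 to 69.5), Notch2 at 13.2 (2.16 to 21.8) and Notch1 at 5.69 (0.46 to 27.6). Below them stood Hey1 at 1.83 TPM (0.13 to 4.85), Jag2 at 1.36 (0 to 4.64), Notch4 at 0.94 (0.08 to 5.93), Hey2 at 0.94 (0.25 to 2.94) and Heyl at 0.16 (0.01 to 1.13). The ranges of neighbors in this order overlapped each time. The order changed with the group. Notch1 (7.58) stood above Notch2 (6.46) by group median TPM in untreated senescent MEFs. The counts had the reverse order, with 1562, 518 and 528 for Notch2 in mice 4, 5 and 6 against 318, 246 and 271 for Notch1. Notch1 also has more exon bases (14232 against 10825), and what RSEM's assignment of lengths adds to this TPM order was not tested. Jag2 (0 in control and 0.15 in untreated senescent) stood below Heyl (0.16 and 0.17). The group medians of Notch3 were 0.38 TPM in control, 7.66 in untreated senescent, 45.7 at 100 μg/mL and 43.95 at 300 μg/mL, and it went from below Notch1 (3.80) and Notch2 (9.29) in control to above Notch1 (5.77) and Notch2 (20.1) at 100 μg/mL.

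The rest of the pathway was followed as a list of 53 genes, of which 43 were tested and 12 were DEGs in at least 1 comparison. The share of all genes that were DEGs in at least 1 comparison was not computed. A single comparison, 100 μg/mL against control, called 19.7% of them, and no reading is made from the count of 12. Median levels among the genes for cutting ran from 1.2 TPM for Aph1c to 162 for Psenen, with 133 for Ncstn and 104 for Aph1a, and among the nuclear genes from 0 for Rbpjl and 0.76 for Maml3 to 52.5 for Rbpj. The Delta ligands Dll3 and Dll4, the Fringe enzyme Mfng and the targets Hes2, Hes3, Hes5, Hes7 and Helt had too few counts to be tested, as had Neurl1b and Rbpjl. Between control and untreated senescent MEFs, 4 of the 43 rose and 1 fell, with a list median of 0.06, where 8.42% of all genes were DEGs. Psen2 and Psenen, parts of the gamma-secretase that cuts Notch, rose by log2 fold changes of 1.03 each (adjusted p = 0.0240 and 0.0226), and with the mouse as a block Psenen was at 0.97, under the fold threshold. Tle2, which encodes a Groucho-type corepressor, rose by 1.15 (adjusted p = 0.0246). Dtx1, a Deltex gene, had 0 counts in control and 35, 51 and 1 in untreated senescent mice 4, 5 and 6, at least 33.1-fold higher (adjusted p = 0.0435), and lost the call with the mouse as a block (adjusted p = 0.0705). The bound was 18.9-fold without senescent mouse 5. Dlk1, a non-canonical ligand that lacks the domain by which Jagged and Delta bind, fell from 64.6, 52.4 and 46.9 CPM to 12.1, 18.2 and 17.5, a log2 fold change of −1.78 with SE 0.35 (adjusted p = 0.00504). Leaving out a mouse kept Dlk1 in 6 of 6 fits, Tle2 in 4, Psen2 and Psenen in 3 each and Dtx1 in 1, and none of the 4 rises held without control mouse 4. In a fit of only these groups Dlk1 alone was called, and Dtx1 had too few counts to be tested. With composition offsets, where 1634 of 15034 genes were DEGs, the split was 1 higher and 3 lower. Psen2 (0.96), Psenen (0.84) and Tle2 (0.96) then lay under the fold threshold, and Lfng (−1.28, adjusted p = 0.0305) and Neurl1a (−1.10, adjusted p = 0.00272) passed it.

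Dner, Dlk1 and Lfng were the pathway genes called between treated and untreated senescent MEFs, 2 of 43 at each dose, where 2.69% of all genes were called for the lower dose and 1.64% for the higher. Dner, which encodes a non-canonical Notch ligand best known from neurons, had 3.99, 4.05 and 2.45 CPM in untreated senescent mice 4, 5 and 6 and 14.8, 20.7 and 8.55 at 100 μg/mL. No samples overlapped, and the rise was 2.07 (SE 0.42, adjusted p = 0.0164) on the log2 scale. With 300 μg/mL Dner was at 8.61, 16.4 and 14.4 CPM, a rise of 1.91 (SE 0.41, adjusted p = 0.0329). The summed level of 6 neural markers was 644 to 1080 CPM in untreated senescent MEFs, 226 to 231 at 100 μg/mL and 220 to 248 at 300 μg/mL. Over these groups the median TPM of Nes fell (188.5, 43.9 and 40.3), while Tubb3 (46.5, 110 and 93.8) and Map2 (0.80, 8.44 and 8.89) rose. The part of these markers in the Dner values was not tested. Dlk1 fell further at 100 μg/mL, to 6.86, 5.41 and 3.18 CPM (−1.63 in log2 units, SE 0.35, adjusted p = 0.0229), and stood at 7.99, 6.54 and 3.57 at 300 μg/mL, where the difference of −1.40 missed the threshold (adjusted p = 0.0610). Lfng encodes Lunatic Fringe, the enzyme that extends sugars on Notch receptors and shifts their choice of ligand. It was at 24.6, 20.1 and 13.2 CPM in control, 6.71, 10.5 and 8.90 in untreated senescent MEFs, 4.91, 2.92 and 2.53 at 100 μg/mL and 1.28, 2.85 and 1.91 at 300 μg/mL, so that untreated senescent samples lay below control and samples at 100 μg/mL below untreated ones. With composition offsets senescent mouse 6 (4.87) came just under mouse 4 at 100 μg/mL (4.90). Neither step passed the threshold as counted, at −1.15 (adjusted p = 0.0792) and −1.33 (adjusted p = 0.0784). From untreated to 300 μg/mL Lfng fell, by a log2 fold change of −2.11 (SE 0.41, with adjusted p = 0.0221). Each of these 4 calls was lost in most fits with a mouse left out, which also called fewer of all genes. Such fits called 136 to 365 genes at 100 μg/mL, against 405 with all samples, and 46 to 220 at 300 μg/mL, against 246. With a mouse left out Dlk1 was called in 0 of 6 fits (adjusted p = 0.0512 to 0.117) and Dner in 2 at 100 μg/mL, and Dner in 1 and Lfng in 2 at 300 μg/mL, and in fits of only the groups compared none was called (0.0585 to 0.112). DESeq2 and composition offsets called all 4, and under the offsets the split of higher to lower genes was 2 to 3 for the lower dose and 1 to 3 for the higher dose. Of all 15034 genes, 543 and 414 were DEGs under the offsets. Leaving out a mouse under the offsets gave 0 calls without mouse 5 at 100 μg/mL and without mouse 6 at 300 μg/mL. Between the doses no pathway gene was a DEG by edgeR, and 0 of 43 had an unadjusted p under 0.05.

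Compared with control MEFs, the lower dose had 5 pathway genes that rose and 4 that fell, and the higher dose 7 and 2, 9 of 43 at either dose, where 19.7% and 18.0% of all genes were DEGs. With the mouse as a block the numbers were 4 and 5, and 4 and 2, as Maml2 (0.0549) lost its call at 100 μg/mL and Maml2 (0.0524), Aph1c (0.0539) and Dtx1 (0.0676) lost theirs at 300 μg/mL. The block called 2819 and 2546 of all 15034 genes for the lower and higher dose. Composition offsets gave 6 and 6 for the lower dose and 6 and 5 for the higher, where 3382 and 3143 of all genes were called. Dner (2.7005 and 2.5432 on the log2 scale at 100 and 300 μg/mL) and the Mastermind coactivator gene Maml2 (1.04 and 1.08) rose at both doses, as did Tle2 (1.302 and 1.571) and Aph1c (3.02 and 2.51), with adjusted p-values of 0.000530 to 0.0472, although Maml2 was called in 0 of 6 fits with a mouse left out at either dose. Aph1c was called in 4 of 6 such fits at 100 μg/mL and in 1 of 6 at 300 μg/mL, and Dner and Tle2 in 6 of 6 at either dose. At 300 μg/mL Aph1c also missed the threshold with library 5(1) alone (0.0601), with 5(2) alone (0.0507) and in a fit of only these groups (0.0979). Dtx1 was at least 38.4-fold higher at 100 μg/mL and at least 27.8-fold at 300 μg/mL, where mouse 4 had 0 counts and mouse 6 held 51 of 68. Without mouse 6 the bound at 300 μg/mL was 10.1-fold. With a mouse left out Dtx1 was called in 3 of 6 fits at 100 μg/mL and in 2 of 6 at 300 μg/mL. At either dose the call was lost without control mouse 4, 5 or 6. In a fit of only control and 300 μg/mL Dtx1 had too few counts to be tested. In that of only control and 100 μg/mL it was called (adjusted p = 0.00821). Mib2, a ubiquitin ligase gene for ligand uptake, and Psen2 rose at 300 μg/mL (1.25 and 1.07), and with composition offsets Mib2 was at 0.93, under the fold threshold. Dlk1 (−3.40 and −3.18) and Lfng (−2.48 and −3.26) fell at both doses, and the protease gene Furin (−1.10) and the ubiquitin ligase gene Neurl1a (−1.15) fell at 100 μg/mL.

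**Figure D5:**
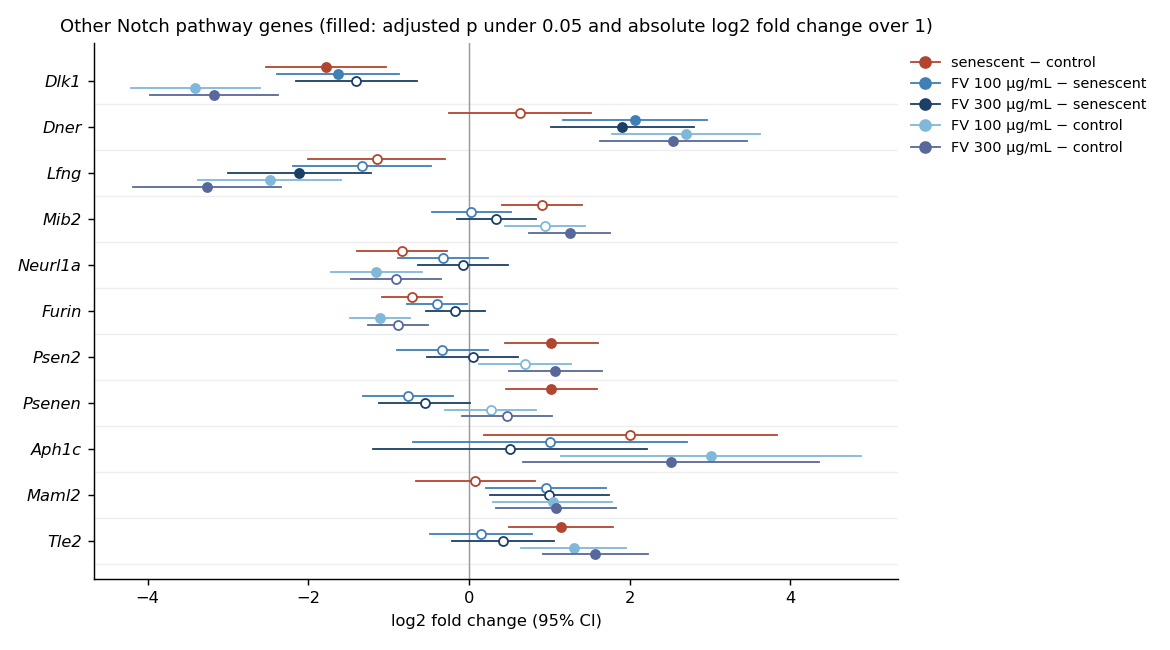
Fitted log2 fold changes with 95% confidence intervals (horizontal axis) of the pathway genes that were DEGs in at least 1 comparison, without Dtx1, which had no count in control, with colors for the comparisons (FV is Fucoidan-FV) and filled points for DEGs. Dner lies right of 0 and Dlk1 and Lfng left of it in all 5 comparisons.

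As a description of likeness, the genes whose log2 CPM followed each member most closely over the 12 samples were listed by Pearson's r. For Notch3 they were Gxylt2 (0.99), Ahnak2 (0.987) and Angpt1 (0.979), and with composition offsets Gxylt2 (0.991), Cd55 (0.985) and Angpt1 (0.984). For Jag2 they were Gm16638 (0.95), Fam241b (0.942) and Scamp5 (0.942), with Fam241b (0.947) also among the nearest after the offsets. Jag1 was closest to Spsb1 (0.909) as counted and to F11r (0.879) with the offsets. For Hey2 the closest gene as counted was Galnt10 (0.989). For Notch1, Notch2, Notch4, Hes1, Hey1 and Heyl none of the 3 nearest genes was shared between the scales. The 12 points share group differences and the library composition described above.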

How the data were processed

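RNA of 13 libraries from MEFs of 4 groups was analysed. Per the labels and the Methods, reads were aligned with STAR 2.7.11b to GRCm39 and quantified with RSEM 1.3.1. The authors deposited expected counts per gene, without normalization, and TPM, normalized by RSEM for length and depth. Expected counts were rounded, libraries 5(1) and 5(2) were summed, and genes were kept by filterByExpr (minimum count 10, total 15). Differences were tested with edgeR 4.0.16 in R 4.3.3 (quasi-likelihood test, TMM factors, 1 fit of 12 samples, Benjamini-Hochberg adjustment over 15034 genes). TPM were described without a test.

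The members, the pathway and marker lists and the alternatives were chosen with earlier results of these data known. Named were all members, pathway genes that were DEGs in any comparison or had the highest TPM of their class, and per member the 3 genes with the highest Pearson's r and a mean of at least 1 CPM.

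Labels give the same mouse numbers in every group, so samples were matched by label where mice are compared. The main test used the group alone and was not paired. Deviations from group means of same-numbered samples correlated with a median of −0.006 (−0.20 to 0.43), over 0.1 in 8 of 18 pairs. Alternatives were DESeq2 1.42.0, RLE factors, other filters, fits of only the groups compared, other uses of the libraries of control mouse 5, a block for the mouse, fits with 1 mouse left out, and composition offsets (splines with 5 degrees of freedom per library). The test was also run on simulated counts, whose outcome is not given here. Of 57010 genes, 56310 matched the annotation.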

Additional observations from a re-analysis of the deposited data

How the results depend on the processing

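Of 10 members, 2 were DEGs in untreated senescent against control MEFs. The count was 1 with at least 10 counts required in every sample, which removes Jag2, and 0 in a fit of only these groups, where Jag2 was not tested. It was 1 with libraries 5(1) and 5(2) as separate samples, 1 with library 5(2) alone, and 1 to 2 with a mouse left out. Over all genes 1266 of 15034 were DEGs as tested above. In the same order of settings the numbers were 1051 of 11240, 699 of 13709, 1291 of 15071 and 1092 of 14976. With a mouse left out they ran from 911 to 1707. At 100 μg/mL against untreated senescent MEFs the count of 0 became 3 with no low-count filter, 3 with DESeq2, 1 with composition offsets, 1 with these offsets and the replicate block, and 0 to 2 with a mouse left out. Over all genes the DEGs went from 405 of 15034 to 800 of 27238, 833 of 15059, 543 of 15034 and 568 of 15034 in the same order. With a mouse left out they ran from 136 to 704. At 300 μg/mL the member count became 1 with no low-count filter, 1 with composition offsets and 0 to 1 with a mouse left out. Over all genes the DEGs went from 246 of 15034 to 580 of 27238 and 414 of 15034, and ran from 46 to 458 with a mouse left out. Against control, the count of 2 at either dose became 1 where at least 10 counts were required in every sample. With that filter 2306 and 2112 of 11240 genes were DEGs at 100 and 300 μg/mL, against 2955 and 2704 of 15034. The cause of the other changes was not tested. With the replicate block alone the counts stayed at 2, 0, 0, 0, 2 and 2 in the 6 comparisons, and the block changed no call of a member.

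In untreated senescent against control MEFs, Notch1 was at −0.016 with no filter, −0.14 with libraries 5(1) and 5(2) separate and −0.39 with 5(2) alone, and Heyl at −0.35, −0.70 with 5(2) alone, −0.11 with offsets and −0.075 with offsets and block. Hey2 was at 0.014 with library 5(1) alone, and Hes1 at −0.21 with offsets and −0.24 with offsets and block. At 100 μg/mL against untreated senescent MEFs, Notch1 was at −0.16 with offsets and −0.17 with offsets and block. At 300 μg/mL Notch1 was at 0.0040 with RLE factors, 0.016 with no filter, 0.023 with the strict filter, 0.0013 with only the groups compared and 0.0047 with DESeq2. Between the doses Jag2 was at 0.080 with the block and 0.026 with offsets and block. With a mouse left out, the log2 values in untreated senescent against control MEFs ran from −0.37 to 0.32 for Notch1, −0.21 to 1.49 for Notch4, −0.60 to 0.70 for Hes1, −0.79 to 0.025 for Hey2 and −1.12 to 1.17 for Heyl. Against untreated senescent MEFs they ran at 100 μg/mL from −1.11 to 0.22 for Hes1, −0.94 to 0.046 for Hey1 and −1.49 to 0.36 for Heyl, and at 300 μg/mL from −0.40 to 0.29 for Notch1, −1.22 to 0.087 for Hes1 and −1.53 to 0.042 for Hey1. Between the doses, with leave-outs under the offsets included, they ran from −0.79 to 0.022 for Notch3 and −0.54 to 0.47 for Jag2. The leave-outs under the offsets were added after the data had been seen.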
